A study of Mus musculus with 4 samples.

Results

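OFF cone bipolar cells of the mouse retina were taken from single-cell RNA-seq of 4 libraries as the cells in which at least 3 of the 5 genes Gsg1, Otor, Grik1, Slitrk6 and Lhx4 were detected. They also had to lack Grm6, the glutamate receptor of ON bipolar cells, show fewer than 3 of 6 rod bipolar genes and fewer than 3 of 5 glial genes, and hold under 15 Rp1 transcripts per 10000. The rule found 1765 members among 26543 cells. There were 571 members of 7894 cells in the rolipram library, 462 of 6143 in the BC11-38 library, 425 of 6809 in the bleached vehicle library and 307 of 5697 in the non-bleached vehicle library. All 4 groups were Abca4-/-Rdh8-/- mice on a C57BL/6J background, aged 6 weeks. They lack Abca4 and Rdh8, a lipid transporter and a retinol dehydrogenase of photoreceptors that help remove retinal released by light, and are therefore prone to light damage. Every cell carries both deletions, controls included. Each library pooled 4 retinae of 2 mice. Mice of the 3 bleached groups spent 24 h in darkness, had their pupils dilated with 1% tropicamide, received white light of 10000 lux for 30 min and were collected 1 day later. Rolipram, which inhibits phosphodiesterase 4, and BC11-38, which inhibits phosphodiesterase 11, were injected intraperitoneally at 2 mg/kg in DMSO 30 min before light, and the vehicle groups received DMSO. The labels describe darkness and pupil dilation as steps before light, so whether the non-bleached group had them is not known. With 1 library per group no value has a replicate and no test across samples was possible, so the intervals below are exact 95% counting intervals and hold no variation between mice or preparations.

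OFF cone bipolar cells carry the signal of cones to the inner retina when light dims. Cones release glutamate in darkness, and OFF cone bipolar cells receive it through ionotropic glutamate receptors, among which kainate receptors hold the subunit GluK1 encoded by Grik1. ON bipolar cells use the metabotropic receptor encoded by Grm6 instead, and therefore invert the signal. Mouse OFF cone bipolar cells fall into several types, numbered 1 to 4 with 3a and 3b, which differ in where they stratify and in which channels, adhesion proteins and transcription factors they make.

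The 250 bases before the annotated start are shown for 3 genes on which the results below turn: Gsg1, the most abundant rule gene, Socs3, the cytokine signalling inhibitor that stood higher in the bleached vehicle library, and Cabp2, a calcium-binding protein gene that stood lower there. They are RefSeq sequences of the build GRCm38.p6, read 5′ to 3′ along the gene. Gsg1 lies on the minus strand and has a start next to chr6:135247885-135248134 and a second one upstream, and the first is shown. Socs3 lies on the minus strand at chr11:117969367-117969616, and the second start of Cabp2 on the plus strand at chr19:4083269-4083518.
Gsg1: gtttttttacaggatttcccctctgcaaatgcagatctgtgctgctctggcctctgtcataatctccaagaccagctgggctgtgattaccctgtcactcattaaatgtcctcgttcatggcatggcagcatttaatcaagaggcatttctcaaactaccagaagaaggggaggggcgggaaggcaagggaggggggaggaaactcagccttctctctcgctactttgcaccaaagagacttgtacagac
Socs3: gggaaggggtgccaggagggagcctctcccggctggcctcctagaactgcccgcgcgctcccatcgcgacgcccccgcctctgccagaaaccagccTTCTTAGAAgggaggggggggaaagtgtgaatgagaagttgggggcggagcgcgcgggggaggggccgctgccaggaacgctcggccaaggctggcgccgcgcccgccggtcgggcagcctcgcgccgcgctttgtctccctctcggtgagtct
Cabp2: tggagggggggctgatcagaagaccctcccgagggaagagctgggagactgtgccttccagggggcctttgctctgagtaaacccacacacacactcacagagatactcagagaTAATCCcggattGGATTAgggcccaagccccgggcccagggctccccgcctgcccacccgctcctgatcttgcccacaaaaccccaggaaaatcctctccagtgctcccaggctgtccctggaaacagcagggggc
Capitals mark TAATCC or its reverse complement GGATTA, the core site of the bipolar and photoreceptor factors Otx2 and Crx, and TTCNNNGAA, the palindrome bound by STAT factors, which is its own reverse complement. Neither motif overlaps the other here. Gsg1 held no match. Socs3 held TTCTTAGAA from 154 to 146 bases before its start, and Cabp2 held TAATCC 136 and GGATTA 124 bases before its second start. Before the first start of Cabp2 there was 0 of either motif. TAATCC or GGATTA occurs in 6.25% and TTCNNNGAA in 7.02% of all 32851 promoters in the table over the same 250 bases. Of the rule genes 4 are in the table and 0 hold TAATCC or GGATTA in that window, and Pcolce, Serpina3n and Stat3 hold neither motif. A match is a run of letters and says nothing of binding.

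The members were chosen by detection of the 5 rule genes, so the levels of these genes are given as a description. A level, in CPM, is a gene's share of all UMIs (counted transcripts) of the members of a library, given per 1000000 UMIs. Gsg1, which encodes a membrane protein named for its expression in germ cells, stood at 1986 CPM in members of the rolipram library, 1924 in the BC11-38, 2194 in the bleached vehicle and 1984 in the non-bleached vehicle library. Otor, which encodes a small secreted protein first found in the inner ear, stood at 398, 410, 416 and 421 CPM in the same order. Slitrk6, a synaptic adhesion protein gene, stood at 419, 436, 363 and 414 CPM, and the LIM homeobox gene Lhx4 at 800, 610, 757 and 612 CPM. Grik1 stood at 978 CPM in rolipram, 862 in BC11-38, 1386 in bleached vehicle and 953 in non-bleached vehicle members. Gsg1 and Otor were the most level of the 5 across libraries, and Grik1 was highest in the bleached vehicle library. Grik1 had 25.6 to 45.1 CPM in rod bipolar cells, and in ON cone bipolar cells it had 58.8, 58.5, 143 and 60.4 CPM in the same order, again highest in the bleached vehicle library. Of the members 752 had all 5 genes, 316 had 4 and 697 had exactly 3. The 697 cells just inside the rule had 1390 CPM of Gsg1, 755 CPM of Grik1, 504 CPM of Lhx4 and 1304 CPM of Scgn, and Isl1, an ON bipolar gene, was seen in 5.88% of them. The 439 cells just outside, with exactly 2 of the genes, had 462 CPM of Gsg1, 206 CPM of Grik1, 271 CPM of Lhx4 and 546 CPM of Scgn, and Isl1 was seen in 21.0%. The amacrine gene Gad1 stood at 19.7 CPM just inside and 183 CPM just outside.

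Markers that took no part in the selection of members placed most of them among bipolar cells, and the ON gene Isl1 was rare outside 1 small cluster. The transcription factor gene Otx2 was seen in 86.4% of members, Neurod4 in 94.6% and Scgn, which encodes the calcium-binding protein secretagogin, in 90.4%. In ON cone bipolar cells they were seen in 86.3%, 93.1% and 74.5%, so these genes do not tell OFF from ON cells. Isl1 was seen in 3.68%, with 9.30, 16.8, 18.5 and 11.2 CPM in rolipram, BC11-38, bleached vehicle and non-bleached vehicle members, against 527 to 754 CPM in ON cone bipolar cells. In 1 cluster of 31 members, 8, 7, 12 and 4 in the same order, Isl1 was seen in 90.3% of cells. It stood at 631 CPM there, against 4.53 CPM in all other members. Whether these are ON cells in which Grm6 was not detected was not tested. Trpm1, the transduction channel of ON bipolar cells, was not absent: it stood at 307 CPM over all members, against 1122 CPM in ON cone bipolar and 2348 CPM in rod bipolar cells. ON cone bipolar cells were themselves chosen by Grm6 with genes among Trpm1, Isl1, Lhx4 and Scgn, so their levels of these are a description. Sox9, which the rule counts among its 5 glial genes, was seen in 35.9% of members at 134 CPM, against 848 CPM in Müller glia, 12.2 CPM in ON cone bipolar and 2.60 CPM in rod bipolar cells. The other 4 glial genes were low in members, between 1.36 CPM for Aqp4 and 14.3 CPM for Dkk3.

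**Figure D1:**
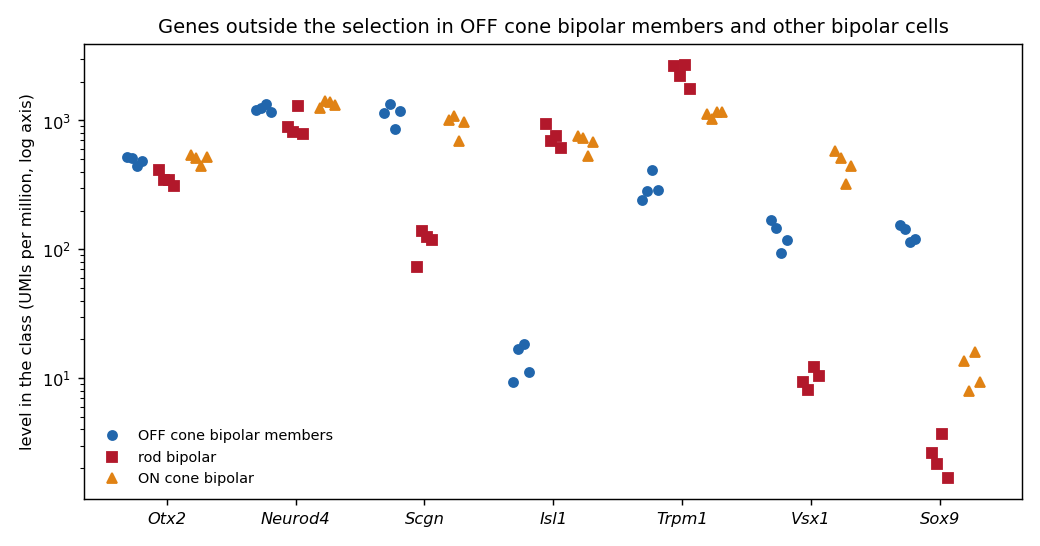
Level in CPM (log axis) of 7 genes that chose no member, except that Sox9 was 1 of 5 glial genes limited by the rule. Trpm1, Isl1 and Scgn took part in choosing the ON cone bipolar cells. Each point is 1 library, from left to right rolipram, BC11-38, bleached vehicle and non-bleached vehicle, in OFF cone bipolar members (circles), rod bipolar cells (squares) and ON cone bipolar cells (triangles); Isl1 lies at 9.30 to 18.5 in members and at 527 or more in both other classes, and Sox9 is highest in members.

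Several further genes marked the members off from other bipolar cells, chosen by their ratio and so given without a test. Esam, an immunoglobulin-family adhesion gene best known from endothelium, stood at 174, 190, 173 and 171 CPM in rolipram, BC11-38, bleached vehicle and non-bleached vehicle members, against 11.8 to 15.7 CPM in ON cone bipolar cells. The zinc finger gene Fezf2 stood at 152, 153, 118 and 162 CPM, and Pde1a, a calcium-dependent phosphodiesterase gene, at 149, 157, 125 and 114 CPM. Esam was the most even of these across libraries. Cadps2, a priming factor of dense-core vesicles, had 45.7, 37.8, 42.3 and 54.0 CPM, and the neurexophilin gene Nxph4 66.6, 72.4, 44.6 and 66.1 CPM. Neto1, an auxiliary subunit of kainate receptors, was higher in both drug libraries, at 404 CPM in rolipram, 414 in BC11-38, 260 in bleached vehicle and 278 in non-bleached vehicle members. In rod bipolar cells Neto1 had 16.2, 16.9, 4.83 and 4.74 CPM and in ON cone bipolar cells 35.5, 23.4, 12.8 and 10.98 CPM, with the same order of drug over vehicle libraries.

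Members made up 7.23% (exact interval 6.67 to 7.83%) of rolipram, 7.52% (6.87 to 8.21%) of BC11-38, 6.24% (5.68 to 6.84%) of bleached vehicle and 5.39% (4.82 to 6.01%) of non-bleached vehicle cells. Among cells of the 3 bipolar classes they were 29.9%, 30.7%, 25.1% and 29.4% in the same order, so the share of all cells and the share of bipolar cells did not rank the libraries alike. Median UMIs per member were 3977, 5450, 5355 and 6662, and since the rule asks for detected genes it depends on depth. With every cell thinned to 2000 UMIs, which leaves out 34, 10, 21 and 3 members as too shallow, the shares of all cells were 8.04%, 8.28%, 7.37% and 5.96%, and of bipolar cells 28.6%, 31.0%, 25.8% and 31.1%. The members of a library held 2581031, 2805510, 2599385 and 2315853 UMIs in all.

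The libraries differed in ways that touch every ratio below. Xist was seen in 56.9% of rolipram, 48.1% of BC11-38, 0.235% of bleached vehicle and 51.8% of non-bleached vehicle members, and Y-linked genes in 38.9%, 49.6%, 80.7% and 50.2%, so the bleached vehicle library held almost no Xist-positive cells. Summed rod markers stood at 1207, 1011, 639 and 602 CPM in members, with all 5 genes detected, and summed cone markers at 250, 278, 282 and 449 CPM. Ganglion cell markers summed to 12.8, 8.198, 3.85 and 123 CPM and microglial markers to 48.8, 0, 1.15 and 0.864 CPM, with all 4 microglial genes at 0 in BC11-38 members. Cells classed as rod bipolar by detected genes held ganglion cell RNA too, with Nefl at 221, 261, 26.5 and 389 CPM. The part of sex, of free RNA and of mixed cells in the ratios was not tested, and in sums over cells fewer cells of a type and less RNA per cell cannot be told apart. Barcodes shared between libraries touched 184 cells of the series, of which 9 were members and 0 shared one with a member of another library.

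Subtypes were read from clusters of the members and from marker genes. Cells like type 3b, which held Prkar2b, Nnat and the most Otor, numbered 209, 148, 164 and 104 in rolipram, BC11-38, bleached vehicle and non-bleached vehicle libraries. Cells like type 3a, with Erbb4 and the pacemaker channel gene Hcn4, numbered 109, 74, 105 and 48, and cells like type 2, with Neto1, the synaptotagmin gene Syt2 and the neurokinin receptor gene Tacr3, numbered 76, 89, 74 and 52. Of the type 2-like cells, 9, 14, 3 and 2 came from a cluster led by the photoreceptor gene Rp1, seen in 96.4% of its cells. The names are best matches to marker lists. Nnat, listed for type 3a too, was not raised over the other clusters in either type 3a-like cluster. Cabp5, listed for type 3b, was raised in neither type 3b-like cluster but in type 3a-like cluster 5. The type 2 marker Syt2 was raised in type 3a-like cluster 4. A further cluster of 246 cells stayed unnamed, 32 cells like type 1 were led by protocadherin genes, and 235 cells fell into clusters with genes of other cell types or with tied markers. The cluster of 31 members led by Isl1 is among the last. Gsg1 was spread unevenly over these types: it had 2996, 3320, 3206 and 3781 CPM in type 3a-like and 2766, 3089, 3346 and 3017 CPM in type 3b-like cells, against 21.1, 15.5, 3.41 and 5.71 CPM in type 2-like cells. Type 2-like cells therefore entered through Grik1, Slitrk6 and Lhx4. Otor was near 0 in type 2-like and type 3a-like cells, at 0 to 8.96 CPM, and had 914, 1006, 1203 and 1106 CPM in type 3b-like cells.

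Sox9 followed the same lines. It had 355, 324, 325 and 244 CPM in type 3b-like cells of the rolipram, BC11-38, bleached vehicle and non-bleached vehicle libraries and 200, 235, 152 and 268 CPM in the unnamed cluster. In type 2-like cells it had 4.22, 0, 5.12 and 9.51 CPM and in type 3a-like cells 1.55 to 2.99 CPM. Trpm1 ran the other way, at 559, 653, 832 and 708 CPM in type 2-like, 247, 249, 342 and 284 CPM in type 3a-like and 134 to 176 CPM in type 3b-like cells. The iroquois gene Irx5 was a gene of type 3a-like cells, with 414, 577, 524 and 338 CPM there, 59.0, 49.2, 135 and 72.3 CPM in type 2-like and 0 to 1.76 CPM in type 3b-like cells.

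The comparison of the bleached with the non-bleached vehicle library asks what differed 1 day after photobleaching. Transcripts of A2m, Pcolce, Serpina3n and Socs3 were higher in bleached members, and those of Pcdh17, Wfdc2 and Cabp2 were lower. With 9131 genes holding 50 UMIs or more over both libraries, the 2-fold mark was passed upward by 92 (1.01%) and downward by 72 (0.789%). The median log2 ratio of all genes was 0.03.

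A2m, which encodes the protease inhibitor alpha-2-macroglobulin (chromosome 6, 121636165 to 121679238), had 459 UMIs or 177 CPM in bleached members and 125 UMIs or 54.0 CPM in non-bleached members, 3.27-fold higher (2.68 to 4.02). It was seen in 177 bleached members and 54 non-bleached members, and the bleached library was the highest of all 4. Rod bipolar cells had 177 CPM of A2m after bleaching against 43.5 CPM without, and ON cone bipolar cells 126 against 46.0 CPM. In the members that held Y-linked but no Xist UMIs, the log2 ratio of A2m was 0.98 in place of 1.71, and among members with at least 4 rule genes 0.81. Asking for 4 rule genes also shifts the mix of types, because type 2-like cells held little Gsg1 and Otor. The part of that shift in the ratios was not tested. Pcolce, which encodes an enhancer of procollagen processing (chromosome 5, 137605105 to 137611522), stood at 95.02 CPM in bleached and 28.1 CPM in non-bleached members, 3.39-fold higher (2.57 to 4.52). Photoreceptors held 68.4 against 32.0 CPM of it, and the log2 ratio in members was 0.83 in cells that held Y-linked but no Xist UMIs and 0.89 with at least 4 rule genes, in place of 1.75. Pxmp2, a peroxisomal membrane channel gene (chromosome 5, 110274286 to 110286222), had 93 UMIs in bleached and 6 UMIs in non-bleached members, 13.8-fold higher (6.11 to 38.6), from 55 and 5 cells. In Müller glia Pxmp2 was lower after bleaching, at 16.9 against 25.5 CPM.

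Other genes higher after bleaching had smaller counts or ratios. Ociad2, which encodes a mitochondrial protein, stood at 74.6 CPM in bleached and 25.9 CPM in non-bleached members, 2.88-fold higher (2.15 to 3.92). The repressor gene E2f6 stood at 138 against 52.7 CPM, 2.62-fold higher (2.13 to 3.25), and Lmo1, a LIM-only cofactor gene, at 45.8 against 15.1 CPM, 3.03-fold higher (2.06 to 4.55). Fam43a was 3.36-fold higher (2.08 to 5.65), and Tmem120b, from 49 and 7 UMIs, 6.24-fold higher (2.81 to 16.3). All 5 were lower in both drug libraries than in the bleached vehicle library.

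**Figure D2:**
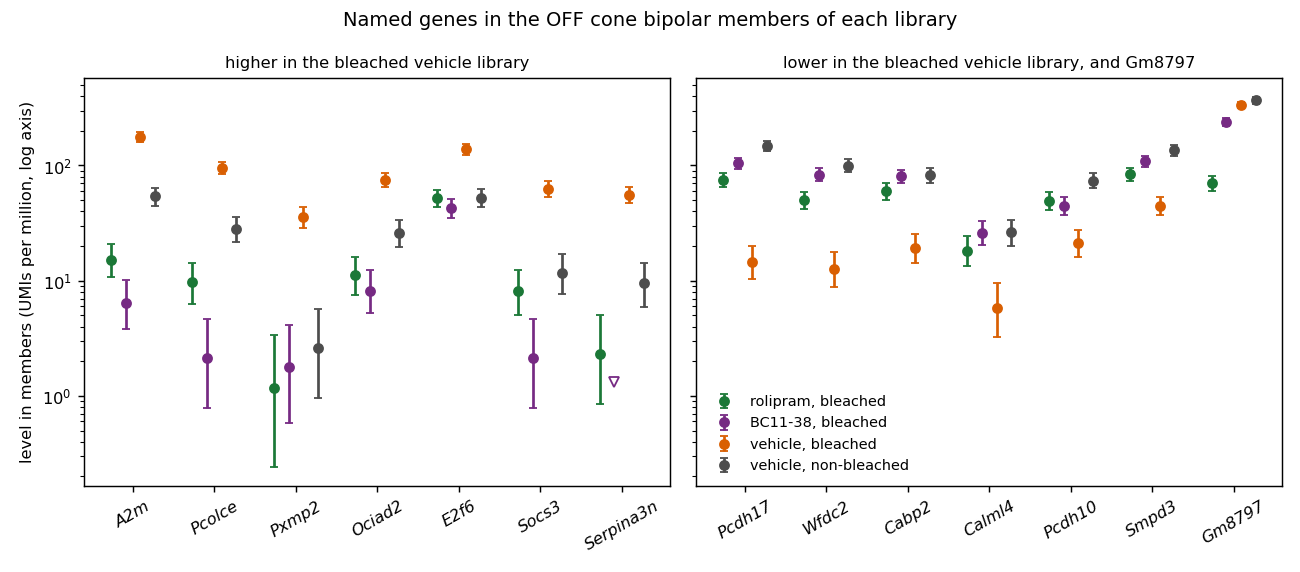
Level in members in CPM (log axis) of 14 named genes in the rolipram, BC11-38, bleached vehicle and non-bleached vehicle libraries, from left to right within each gene. Bars are exact 95% Poisson intervals of the library's own count, and the open triangle is the upper bound of a count of 0; the bleached vehicle point is the highest of the 4 for each gene on the left and the lowest for the first 6 on the right, where Gm8797 is lowest in the rolipram library.

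The lower genes had a different distribution over cells. Pcdh17, which encodes a protocadherin of synaptic adhesion (chromosome 14, 84443563 to 84537565), stood at 14.6 CPM in bleached and 148 CPM in non-bleached members, 10.1-fold lower (7.21 to 14.5). Wfdc2, a gene of a secreted protein with a whey acidic protein domain (chromosome 2, 164562715 to 164568510), stood at 12.7 against 99.8 CPM, 7.86-fold lower (5.44 to 11.7). Cabp2, a calcium-binding protein gene (chromosome 19, 4081469 to 4087340), stood at 19.2 against 82.0 CPM, 4.26-fold lower (3.11 to 5.95). Calml4, a calmodulin-like gene, was 4.57-fold (2.56 to 8.65), the protocadherin gene Pcdh10 3.49-fold (2.56 to 4.82) and the adhesion gene Kirrel 4.71-fold lower (2.33 to 10.5). Smpd3, a neutral sphingomyelinase gene, stood at 44.6 against 135 CPM, 3.03-fold lower (2.44 to 3.78). In cells that held Y-linked but no Xist UMIs the log2 ratio of Pcdh17 was -4.2 in place of -3.32. Kcnmb4os2, an antisense RNA, had 16 against 62 UMIs, and its reads cannot be told apart from those of its partner gene where strand was not used. The promoters of Pcdh17 and Wfdc2 hold no TAATCC or GGATTA.

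Wfdc2 and Pcdh17 transcripts lay mostly in a minority of members. The unnamed cluster held 83 rolipram, 78 BC11-38, 28 bleached vehicle and 57 non-bleached vehicle cells, and Wfdc2 and Cabp2 lead it, so its size is no separate result. Within it Wfdc2 stood at 329, 305, 219 and 352 CPM in the same order and Cabp2 at 358, 361, 228 and 365 CPM. In type 3a-like and type 3b-like cells Wfdc2 was at 0 to 3.52 CPM. Pcdh17 and Pcdh10 also lead the type 1-like cells, of which there were 7, 13, 0 and 12. The 0 of 425 bleached members allows a share of up to 0.706% by 3 counts of the total, or 0.864% by the exact interval. Without clusters, 40, 56, 11 and 55 members held at least 3 of 5 genes of the type 1-like cells. This choice was made after the clusters were seen. By it the bleached vehicle library did hold members with these genes. Wfdc2, Pcdh17 and Pcdh10 are among them and were also raised in the unnamed cluster, so such members need not be type 1-like. Among type 2-like cells, Pcdh17 stood at 1.71 CPM in the bleached and 78.0 CPM in the non-bleached vehicle library, from 1 and 41 UMIs, and it had 0 UMIs in both drug libraries. In members picked by Neto1 and Tacr3 alone Pcdh17 stood at 38.6, 117, 1.28 and 187 CPM, so this choice of cells gave another order of libraries, with the drug libraries above bleached vehicle. ON cone bipolar cells had 153 CPM of Pcdh17 after bleaching against 188 CPM without, and 131 against 193 CPM of Cabp2. Amacrine cells, 319 in the bleached and 806 in the non-bleached vehicle library, had 128 against 255 CPM of Pcdh17 and 37.7 against 159 CPM of Pcdh10. Cells classed as rod bipolar had 29.7 against 97.7 CPM of Pcdh17 and 14.0 against 96.0 CPM of Pcdh10. The part of RNA from other cells in the ratios of Pcdh17 and Pcdh10 was not tested.

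Gene lists give the same comparison by function. Background for members at least 1.5-fold higher was 5.23% of all genes counted and for those at least 1.5-fold lower 3.24%. Of 9 counted genes of the injury, growth factor and acute-phase list, 7 passed 1.5-fold upward and 0 downward, and the median log2 ratio was 0.82. Serpina3n, an acute-phase protease inhibitor gene, had 145 UMIs in bleached and 22 UMIs in non-bleached members, 5.87-fold higher (3.73 to 9.66). Socs3, which inhibits cytokine signalling through STAT3, stood at 62.7 against 11.7 CPM, 5.38-fold higher (3.56 to 8.41), and Stat3 itself at 209 against 126 CPM, 1.66-fold higher (1.44 to 1.92). Bdnf, a neurotrophin gene, lay the other way at 52.7 against 73.4 CPM. Of 12 interferon and antigen presentation genes 9 were higher and 0 lower, with a median of 0.86. The class I histocompatibility gene H2-K1 stood at 81.9 against 39.3 CPM, Irf9, an interferon-regulated transcription factor gene, at 33.9 against 17.3 CPM, and Ifit1, an interferon-induced gene, at 44.2 against 22.0 CPM.

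These genes are also transcribed in other cells of the retina. Photoreceptors of the bleached library had 129 CPM of Socs3 and 195 CPM of Irf9, against 53.0 and 99.0 CPM in those of the non-bleached library. Serpina3n was low in photoreceptors, at 9.41 against 1.75 CPM, and higher in rod bipolar cells, at 316 against 73.4 CPM. Immediate early genes, which respond to stimulation within minutes, had a median of 0.42, and of the 14 counted 4 passed 1.5-fold upward and 1 downward. Junb stood at 832 against 522 CPM, Egr1 at 1155 against 700 CPM, and Fos at 2181 against 1593 CPM. Atf3, a stress-induced factor gene, had 144 UMIs in bleached and 55 in non-bleached members, and it stands in the injury list too. The part of free RNA from photoreceptors was not tested for any of them.

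Lists of synaptic and channel genes had medians near 0, but several held more genes past 1.5-fold downward than upward. Of all genes counted, 5.23% were that much higher and 3.24% that much lower. Medians were -0.05 for 26 ion channel genes (0 higher, 3 lower), -0.02 for 32 adhesion genes (2 higher, 4 lower) and -0.03 for 24 cAMP signalling genes (0 higher, 3 lower). They were -0.04 for 24 calcium and G protein genes (0 higher, 3 lower), -0.04 for 18 unfolded protein response genes (1 higher, 2 lower) and 0.06 for 60 ribosomal protein genes. Of 13 inhibitory receptor genes 0 were 1.5-fold different, and the 28 ribbon synapse genes had a median of -0.06, with 1 higher and 1 lower. Of 16 glutamate receptor genes 2 were higher and 4 lower, with a median of 0.00. Grik2, a second kainate receptor gene, had 63 UMIs in bleached and 22 UMIs in non-bleached members, 2.55-fold higher (1.55 to 4.35), although amacrine cells held 77.1 to 78.9 CPM of it in the 2 vehicle libraries. Grin2b, an NMDA receptor gene, stood at 30.4 against 67.8 CPM, 2.23-fold lower (1.69 to 2.96), and Cacng2, which encodes the AMPA receptor partner stargazin, at 55.4 against 98.5 CPM, 1.78-fold lower (1.44 to 2.21). Gria2, the AMPA receptor subunit gene, was 1.20-fold lower (1.12 to 1.28). Grik1 itself was 1.45-fold higher (1.38 to 1.53), on the same cells it helped to choose.

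Of 24 bipolar transcription factor genes 4 were higher and 3 lower (median 0.08). Irx5 stood at 194 against 91.1 CPM, 2.13-fold higher (1.81 to 2.51), and Irx6 at 308 against 185 CPM. Irx5 was a gene of type 3a-like cells, which made up 24.7% (20.7 to 29.1%) of bleached and 15.6% (11.8 to 20.2%) of non-bleached members. The part of the mix of types in the ratios of Irx5 and Irx6 was not tested. Bhlhe22, a basic helix-loop-helix gene needed for type 2 cells in the mouse, stood at 96.2 against 156 CPM, 1.62-fold lower (1.38 to 1.92). In type 3a-like cells it stood at 30.9 against 218 CPM, 7.06-fold lower, from 20 and 73 UMIs. Nuclear genes of oxidative phosphorylation, 61 in all, lay at a median of 0.17 with 0 past 1.5-fold, and 13 transcripts of the mitochondrial genome at -0.23. The 13 heat shock genes had a median of -0.25 and 0 past 1.5-fold, 18 clock genes -0.10 and 10 cell death genes 0.25. In the last, Gadd45b stood at 42.3 against 16.0 CPM, 2.65-fold higher (1.81 to 3.96). In the calcium and G protein list Calb2 stood at 5.39 against 45.8 CPM, 8.50-fold lower (4.85 to 16.1), and in the ion channel list Atp1b1 at 21.2 against 82.5 CPM, 3.90-fold lower (2.87 to 5.36). Non-bleached members had Calb2 in 17 cells and Atp1b1 in 24 cells, and they were also the members with most ganglion cell marker RNA. Cells classed as rod bipolar had 136 against 1048 CPM of Calb2 and 54.5 against 448 CPM of Atp1b1. That class also held the ganglion cell gene Nefl at 26.5 against 389 CPM and the amacrine gene Gad1 at 30.6 against 183 CPM. The part of RNA from other cells in the ratios of Calb2 and Atp1b1 was not tested, in members or in that class.

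**Figure D3:**
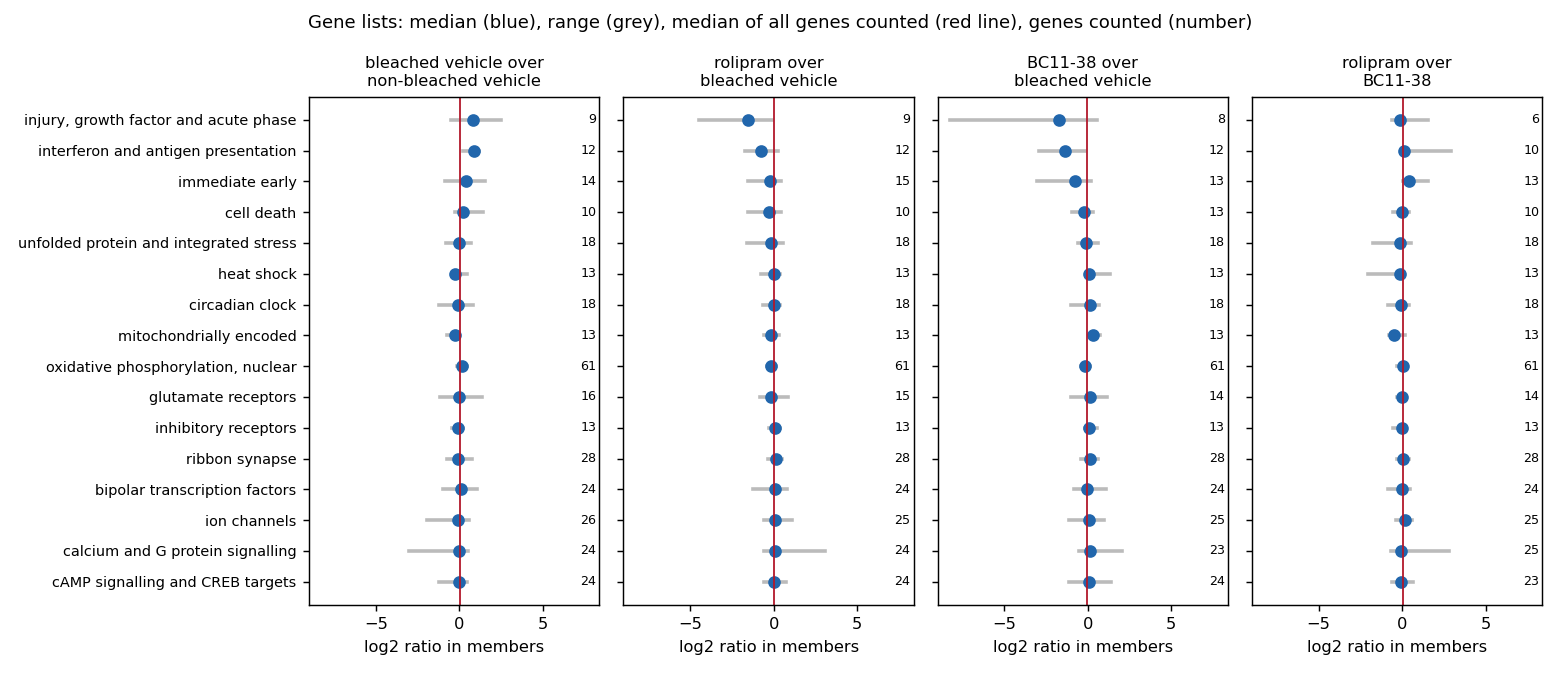
Log2 ratio in members for 16 gene lists and 4 comparisons. Blue points are the median of the genes counted, grey lines the lowest to the highest gene, red lines the median of all genes counted and the number at the right the genes counted; the injury list is at 0.82, -1.52, -1.75 and -0.11 from left to right, and the synaptic lists lie close to the red lines.

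Rolipram and BC11-38 given before light were each compared with bleached vehicle, so both comparisons share the bleached vehicle library and are given side by side only. Members of both drug libraries held less RNA of all 8 named genes that were higher after bleaching, and less A2m, Pcolce and Ociad2 than non-bleached members. A2m had 39 UMIs or 15.1 CPM in rolipram members and 459 UMIs or 177 CPM in bleached vehicle members, 11.7-fold lower (8.42 to 16.6). In BC11-38 members it had 18 UMIs or 6.42 CPM, 27.5-fold lower than bleached vehicle (17.2 to 46.9). The non-bleached level of 54.0 CPM lay between. Pcolce stood at 9.69 CPM with rolipram and 2.14 CPM with BC11-38, against 95.02 CPM in bleached vehicle members, 9.81-fold (6.49 to 15.5) and 44.4-fold lower (20.1 to 122). Pxmp2 had 3 and 5 UMIs, against 93, 30.8-fold (10.2 to 152) and 20.1-fold lower (8.30 to 63.3). Ociad2 was 6.64-fold lower with rolipram (4.48 to 10.2) and 9.10-fold lower with BC11-38 (5.89 to 14.7), at 11.2 and 8.198 CPM.

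In the rolipram comparison 93 of 9370 genes (0.993%) passed 2-fold upward and 97 (1.04%) downward. The neuronal intermediate filament gene Prph had 1 UMI in rolipram, 0 in BC11-38, 61 in bleached vehicle and 20 in non-bleached vehicle members, and its ratio of rolipram to bleached vehicle was 60.6-fold lower, with an interval of 10.5 to 2431. Pvalb, which encodes the calcium buffer parvalbumin, had 5 and 69 UMIs in rolipram and bleached vehicle members, 13.7-fold lower (5.597 to 43.5), and Fam43a 12 and 83 UMIs, 6.87-fold lower (3.73 to 13.8). Of the named genes higher with rolipram, 7 were genes of macrophages, among them the lysozyme gene Lyz2 with 231 UMIs and the chemokine gene Cxcl2 with 347 UMIs. A single member held all UMIs of both, so they describe that cell. The eighth was Wfdc2, at 49.98 CPM in rolipram and 12.7 CPM in bleached vehicle members, 3.94-fold higher (2.67 to 5.96). Pcdh17 was 5.12-fold higher (3.60 to 7.45) and Cabp2 3.10-fold higher (2.24 to 4.36), at 74.8 and 59.7 CPM.

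In the BC11-38 comparison 80 of 9362 genes (0.855%) passed 2-fold upward and 139 (1.48%) downward. Pvalb and Prph had 0 UMIs in BC11-38 members, at least 24.8-fold and at least 21.9-fold lower with 3 counts in place of 0. Endou, an endoribonuclease gene, had 6 UMIs in BC11-38 and 63 in bleached vehicle members, 11.3-fold lower (4.93 to 32.0), and Fam43a was 9.95-fold lower (4.998 to 22.5). Pcdh17 stood at 104 CPM in BC11-38 and 14.6 CPM in bleached vehicle members, 7.14-fold higher (5.08 to 10.3), and Wfdc2 at 83.4 against 12.7 CPM, 6.57-fold higher (4.55 to 9.77). Cabp2 was 4.19-fold (3.07 to 5.81) and Calml4 4.51-fold higher (2.56 to 8.46), both genes of the unnamed cluster. The ETS factor gene Etv1 had 80 UMIs against 14, 5.29-fold higher (2.98 to 10.1), the matrix protein gene Postn 47 against 8, 5.44-fold higher (2.55 to 13.3), and Fat4, an atypical cadherin gene, 222 against 73, 2.82-fold higher (2.15 to 3.72).

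Injury genes were lower with either drug. Against bleached vehicle, 7 of 9 genes lay 1.5-fold or more lower with rolipram and 0 as far higher (median log2 ratio -1.52, with 3.86% of all genes that much lower and 4.51% higher), and 7 of 8 were lower with BC11-38 and 0 higher (median -1.75, with 5.77% of all genes that much lower and 4.06% higher). Serpina3n had 6 UMIs in rolipram and 0 in BC11-38 members against 145 in bleached vehicle members, 24.0-fold lower (10.8 to 66.5) and at least 52.2-fold lower with 3 counts in place of 0. Socs3 stood at 8.14 CPM with rolipram and 2.14 CPM with BC11-38 against 62.7 CPM, 7.71-fold (4.88 to 12.8) and 29.3-fold lower (13.2 to 81.1). Stat3 stood at 72.8 and 63.1 against 209 CPM, Cebpd, an acute-phase transcription factor gene, at 15.5 and 14.6 against 45.0 CPM, and Gap43, a gene of growing axons, at 12.0 and 14.97 against 51.5 CPM. The bleached vehicle library was the highest of the 4 for each of these. No list median changed when genes with 0 UMIs were put at their bound.

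Counted interferon genes were also mostly lower with either drug, with the same limit from the minimum of 50 UMIs. With rolipram 7 of 12 were lower and 0 higher (median -0.77), and with BC11-38 9 of 12 were lower and 0 higher (median -1.35). Of all genes counted, 3.86% were 1.5-fold lower and 4.51% higher with rolipram, and 5.77% and 4.06% with BC11-38. Irf9 stood at 10.1 CPM with rolipram and 4.28 CPM with BC11-38, against 33.9 CPM in bleached vehicle members, 3.36-fold (2.15 to 5.42) and 7.92-fold lower (4.31 to 15.9). H2-K1 stood at 31.4 and 27.1 against 81.9 CPM and H2-D1 at 40.3 and 37.8 against 96.2 CPM. B2m, the light chain of class I molecules, had 60 UMIs in rolipram, 8 in BC11-38 and 50 in bleached vehicle members, but 65.0% of the rolipram UMIs were in 1 cell. Of the immediate early genes 3 of 15 were lower with rolipram and 0 higher (median -0.23), and 7 of 13 were lower with BC11-38 and 0 higher (median -0.78). Junb stood at 454 and 371 against 832 CPM, Egr1 at 911 and 541 against 1155 CPM, and Fos at 1695 and 1227 against 2181 CPM.

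Of 15 glutamate receptor genes 3 passed 1.5-fold upward and 1 downward with rolipram (median -0.13), and of 14 with BC11-38 4 and 2 (median 0.12). Of all genes counted, 4.51% passed 1.5-fold upward and 3.86% downward with rolipram, and 4.06% and 5.77% with BC11-38. Gria2, Grin2b and Cacng2 were higher with either drug and Grik1 lower, while Gria1, another AMPA receptor gene, stood at 68.2 and 59.9 against 77.3 CPM. Gria2, an AMPA receptor gene, stood at 906 CPM with rolipram and 920 CPM with BC11-38, against 628 CPM in bleached vehicle members, 1.44-fold (1.35 to 1.54) and 1.47-fold higher (1.38 to 1.56). Grin2b stood at 56.2 and 68.4 against 30.4 CPM, 1.85-fold (1.40 to 2.46) and 2.25-fold higher (1.72 to 2.96), and Cacng2 was 1.72-fold higher with each (1.40 to 2.13 in both). Grik1 was 1.42-fold (1.35 to 1.49) and 1.61-fold lower (1.53 to 1.69). It helped to choose these cells, so its ratios, and its place in the list counts, are a description. Of the drugs' own targets, Pde4a stood at 68.2 CPM in rolipram and 51.0 CPM in BC11-38 members, against 41.5 CPM, 1.64-fold (1.28 to 2.10) and 1.23-fold higher (0.949 to 1.59). Pde4b stood at 48.4, 52.0, 49.2 and 49.7 CPM in the 4 libraries, level across them. Pde11a had 2, 2, 3 and 0 UMIs in the same order, too few for a ratio. Of 24 cAMP signalling genes 2 passed 1.5-fold upward and 0 downward with rolipram (median 0.05), and 3 and 3 with BC11-38 (median 0.08), Pde10a among these at 157 against 94.2 CPM. Of 25 ion channel genes 6 were higher and 0 lower with rolipram (median 0.10, against 4.51% of all genes higher), and 3 higher and 1 lower with BC11-38 (median 0.04, against 4.06%). Of 32 adhesion genes 3 were higher and 1 lower with rolipram (median 0.16), and 5 higher and 2 lower with BC11-38 (median 0.05). The inhibitory receptor list had 0 of 13 genes past 1.5-fold with either drug, and list medians of ribbon synapse genes were 0.13 with rolipram and 0.11 with BC11-38.

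Within types A2m, Pcolce, Pxmp2 and Serpina3n had their highest levels in type 2-like or type 3a-like cells. Values within a type are descriptions, because the clusters were built from these cells and their genes, and different clusters hold most of a type in different libraries. For type 3a-like cells, cluster 4 held 3 rolipram, 0 BC11-38, 94 bleached vehicle and 17 non-bleached vehicle cells and cluster 5 held 106, 74, 11 and 31. For type 2-like cells, cluster 6 held 1, 2, 65 and 17 cells and cluster 11 held 66, 73, 6 and 33. Type 3b-like cells were spread more evenly, with 118, 56, 73 and 33 cells in cluster 0 and 91, 92, 91 and 71 in cluster 2. The bleached vehicle cells of types 2 and 3a thus lay mostly apart from those of the drug libraries, and those of type 3b did not.

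A2m stood at 37.7, 25.4, 360 and 140 CPM in type 3a-like cells of the rolipram, BC11-38, bleached vehicle and non-bleached vehicle libraries, at 10.5, 0, 189 and 51.4 CPM in type 2-like and at 1.42, 0, 14.6 and 3.52 CPM in type 3b-like cells. In members picked only by detection of Erbb4 and Hcn4, without clusters, it stood at 29.7, 29.6, 334 and 156 CPM. In those with Neto1 and Tacr3 it stood at 15.5, 4.39, 184 and 43.9 CPM, and in those with Prkar2b and Nnat at 6.49, 2.996, 64.1 and 39.8 CPM. The order of libraries was the same by either way of choosing cells, with the bleached vehicle library highest. Pcolce was mainly a type 3a-like transcript, at 27.2, 5.08, 269 and 125 CPM. Pxmp2 had 3, 0, 71 and 6 UMIs in type 3a-like cells and at most 2 in type 2-like cells of any library. Serpina3n was found mainly in type 2-like cells, with 4, 0, 116 and 21 UMIs there, 0, 0, 4 and 0 in type 3a-like cells and 0 in type 3b-like cells of all 4 libraries.

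**Figure D4:**
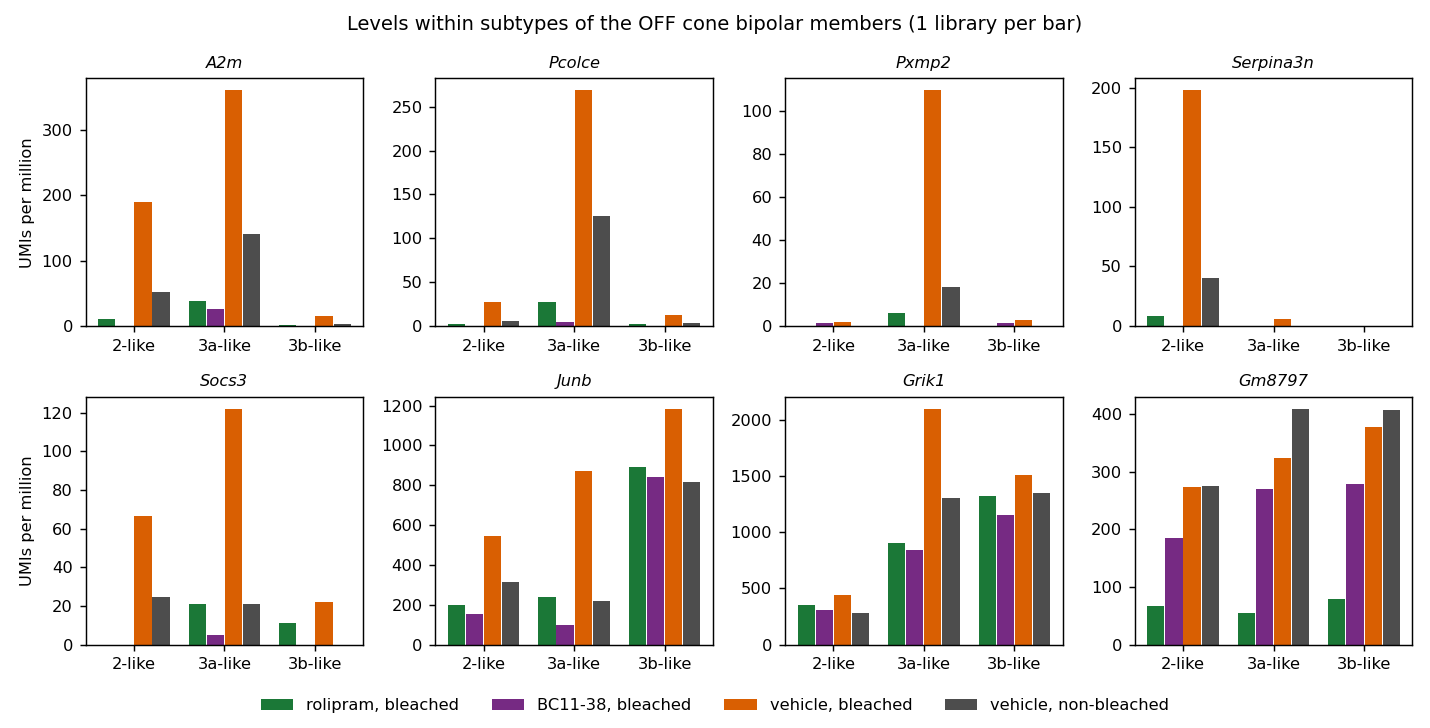
Level in CPM (linear axes from 0) of 8 genes in cells like types 2, 3a and 3b, with 1 bar per library in the order rolipram, BC11-38, bleached vehicle, non-bleached vehicle. A2m, Pcolce and Pxmp2 are highest in type 3a-like and Serpina3n in type 2-like cells of the bleached vehicle library, and Gm8797 is lowest in the rolipram library in all 3 types.

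Socs3 stood at 20.9, 5.08, 122 and 20.9 CPM in type 3a-like, 0, 0, 66.5 and 24.7 CPM in type 2-like and 11.4, 0, 21.9 and 0 CPM in type 3b-like cells. Stat3 was higher in the bleached vehicle library in all of them, at 73.2, 45.7, 230 and 131 CPM in type 3a-like, 80.1, 52.1, 249 and 181 CPM in type 2-like and 76.7, 69.8, 158 and 94.99 CPM in type 3b-like cells. H2-K1 stood at 31.4, 27.9, 120 and 68.7 CPM in type 3a-like and 29.5, 31.0, 97.2 and 64.7 CPM in type 2-like cells. In type 3b-like cells it stood at 44.0, 32.6, 40.8 and 19.4 CPM, from 31, 21, 28 and 11 UMIs. The rolipram member with the macrophage transcripts lies in this type, and 1 cell held 48.4% of its rolipram H2-K1 UMIs. Grik1, a gene of the rule that chose the members, was highest in the bleached vehicle library in each of these types. It stood at 906, 846, 2104 and 1308 CPM in type 3a-like cells. In type 3b-like cells it stood at 1323, 1159, 1510 and 1351 CPM and in type 2-like cells at 356, 310, 442 and 285 CPM. Syt2 was also highest in that library, at 31.4, 0, 236 and 104 CPM in type 3a-like and 379, 343, 658 and 430 CPM in type 2-like cells.

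Immediate early genes had their own order of types. Fos stood at 3018, 2294, 3979 and 2573 CPM in type 3b-like, 1208, 858, 1656 and 1151 CPM in type 2-like and 789, 368, 1020 and 454 CPM in type 3a-like cells. Egr1 stood at 1901, 1431, 2537 and 1509 CPM in type 3b-like, 632, 147, 695 and 364 CPM in type 3a-like and 126, 22.5, 297 and 62.8 CPM in type 2-like cells. Type 3b-like cells were the highest for both genes in each of the 4 libraries, and BC11-38 cells the lowest library within each type. Junb stood at 889, 843, 1184 and 814 CPM in type 3b-like and 241, 96.5, 872 and 218 CPM in type 3a-like cells.

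Rolipram was set against BC11-38 at the same dose and time. Of 9383 genes 66 (0.703%) passed 2-fold upward with rolipram and 28 (0.298%) downward. The 3 named higher genes, Cxcl2, Lyz2 and Ccl12, came wholly or nearly so from the cell described above. Gm8797, a predicted gene (chromosome 3, 5750893 to 5751295), stood at 70.1 CPM in rolipram and 240 CPM in BC11-38 members, 3.42-fold lower (2.90 to 4.05), and bleached and non-bleached vehicle members had 336 and 368 CPM. It was lowest in the rolipram library in rod bipolar cells too, at 56.8, 223, 340 and 416 CPM, and in Müller glia, at 58.8, 200, 276 and 340 CPM in the same order. How reads shared with other copies of such a gene were counted is not given in the sources used here. Sdf2l1, a chaperone cofactor gene of the endoplasmic reticulum, had 27 UMIs with rolipram and 101 with BC11-38, 3.44-fold lower (2.23 to 5.48), and Parm1 11 and 46 UMIs, 3.85-fold lower (1.96 to 8.24).

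Rolipram and BC11-38 members differed in Egr1, Atf3 and Cryab among the listed genes. Among 13 immediate early genes 4 passed 1.5-fold upward with rolipram and 0 downward (median 0.40, with 4.56% of all genes that much higher), Egr1 among them at 911 against 541 CPM, 1.68-fold (1.58 to 1.80). Within the unnamed cluster Junb lay the other way, at 168 CPM with rolipram against 359 CPM with BC11-38. Of 10 interferon genes 3 were higher and 0 lower (median 0.10), B2m with its single cell among them. Of 6 injury genes 1 was higher and 1 lower (median -0.11, with 2.23% of all genes 1.5-fold lower). Pcolce had 25 and 6 UMIs, under the minimum of 50 for a ratio, and A2m was 2.35-fold higher (1.32 to 4.37). Cryab, a small heat shock protein gene, stood at 24.8 CPM with rolipram and 102 CPM with BC11-38, 4.11-fold lower (3.12 to 5.48), and at 10.4 against 285 CPM in ON cone bipolar cells. Bhlhe22 was 1.77-fold lower with rolipram (1.54 to 2.05), and transcripts of the mitochondrial genome lay at a median of -0.50. Summed mitochondrial UMIs were 5.99% of member UMIs with rolipram and 8.29% with BC11-38. None of the 14 glutamate receptor, 13 inhibitory receptor or 28 ribbon synapse genes counted was 1.5-fold apart between the drugs, with medians of -0.03, -0.04 and 0.04.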

How the data were processed

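Single-cell libraries of 4 groups, 1 each, were deposited by the authors as 1 matrix of natural log values, ln(1 + UMIs per 10000 UMIs of the cell), per the file headers and the values. Cell Ranger 6.0.1, Seurat 3.2.2 and mm10 are named, per the submitters' processing notes; cell filters and use of strand are not stated there. Because 100% of values were whole multiples of 1 UMI within 0.001, 140410160 UMIs of 26543 cells and 20094 genes were recovered. UMIs of members were summed per library and divided by the library's member total (CPM). Intervals are exact 95% Poisson, conditional ratio or Clopper-Pearson intervals, cover counting error only, and ratios needed 50 UMIs over both libraries; 2-fold was the call. For bounds, 3 counts stood in for 0. Scripts ran in Python 3.11.15 with numpy 2.4.6, pandas 2.3.3, scipy 1.17.1 and scanpy 1.11.5 (Leiden clusters), and were tested on simulated data. No doublets were removed and no doublet caller was run. Named genes per comparison are those of at least 2-fold whose interval lay farthest from 1, leaving out sex-linked genes and genes lower in members than in all other cells together. Members, lists and rules were chosen with earlier results of these data known; the STAT motif was added after the values were seen. Alternatives covered scaling, minimum UMIs, the rule, sex, top cells, cell weights, mixed cells and cluster resolution.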

Additional observations from a re-analysis of the deposited data

How the results depend on the processing

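With 1 library per group, depth and the missing replicates limit every ratio. Results are given in the order higher, lower. With at least 100 UMIs the 2-fold counts were 32 and 26 for bleached over non-bleached vehicle, 36 and 52 for rolipram over bleached vehicle, 32 and 69 for BC11-38 over bleached vehicle and 15 and 10 for rolipram over BC11-38. With at least 20 UMIs they were 254 and 205, 276 and 222, 206 and 323, and 244 and 107, by the construction of the filter. With at least 4 rule genes, 51 were higher in bleached over non-bleached vehicle, 58 higher and 51 lower with rolipram, 72 lower with BC11-38 and 42 higher with rolipram over BC11-38. That setting also shifts the mix of types, because type 2-like cells held little Gsg1 and Otor. Bleached over non-bleached vehicle had 42 lower in cells that held Y-linked but no Xist UMIs and 46 without the top 10% of members by UMIs. Member shares in rolipram, BC11-38, bleached vehicle and non-bleached vehicle libraries were 4.56%, 4.62%, 3.35% and 3.44% with at least 4 rule genes and 10.5%, 11.3%, 9.26% and 8.59% of cells with Rp1 under 15. They were 8.04%, 8.28% and 7.37% in the first 3 after thinning and 6.50%, 6.76% and 5.61% without the top 10%. At cluster resolution 0.5, type 2-like cells were 17.3% of rolipram and 21.9% of bleached vehicle members and type 3b-like cells 41.9% of rolipram members. Cxcl2 in rolipram over bleached vehicle took a log2 ratio of -1.58 without the top 10% and -1.57 without mixed cells. Both leave out the single rolipram cell that held all its UMIs, so these values come from the added prior of 0.5 UMIs and are no measured reversal; the second setting was chosen after seeing the data. A list median was called the same within a fixed log2 tolerance, which is wider than many of the medians themselves. A named gene was called the same within the counting interval of its main ratio. By these marks 631 values of list medians stayed the same and 12 moved, and of named genes 426 stayed, 41 moved and the 2 of Cxcl2 changed sign. The cause of the other moves was not tested. No paired analysis was possible because each group has 1 library.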
